A study of Ovis aries with 9 samples.

Results

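miR-191 and miR-22 are microRNAs (miRNAs), short RNAs that guide Argonaute proteins to messenger RNAs and lower their output. Both were followed here in small RNA libraries of sheep sperm. Their reads were taken as every distinct sequence whose deposited annotation holds the name oar-mir-191 or oar-mir-22, each kept apart from the other. They are 2 of the 105 ovine miRNA names that had at least 1 read. In the CON, OVER and RES libraries the rule gave 268, 307 and 367 distinct sequences for miR-191 and 59, 117 and 92 for miR-22, and no sequence of either carried a second miRNA name.

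The sperm came from the semen of F1 rams labelled WT, whose treatment is given as standard feeding (CON), over feeding (OVER) or restricted feeding (RES). By the title of the series the feeding is that of the mothers during gestation. All groups shared a lysis of somatic cells in detergent before extraction, and the rams' ages are not given in the labels. The labels list 3 samples in each of the 3 groups, but within a group the 3 tables do not differ in any sequence or its number of reads, so each group was counted as 1 library. Whether a table stands for 1 ram or for a pool cannot be told, and the groups could not be tested against each other. Every interval below covers counting error only, and in such bulk samples fewer cells of a type and less RNA per cell cannot be told apart.

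A miRNA is cut from a hairpin by Drosha and Dicer, and a strand from 1 arm of the hairpin is kept in Argonaute. Bases 2 to 8 from its 5′ end, the seed, choose most targets, so a read that starts a base later reads other targets, while the 3′ end often varies by trimming or by added bases. Such length and end variants are called isomiRs. miR-191 is an abundant miRNA of many tissues that has repeatedly been listed among the common miRNAs of mammalian sperm. miR-22 is a widely expressed miRNA of muscle, blood and other tissues. In the RefSeq table of the sheep assembly ARS-UI_Ramb_v3.0, MIR191 lies between NDUFAF3 and DALRD3, and MIR22 lies inside the long non-coding gene LOC121820573.

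The commonest reads of each miRNA and examples of its rarer forms are shown first, because the results below turn on their ends. They are given as DNA letters from 5′ to 3′ with the seed in capitals. Some reads commoner than these rarer forms are left out. The first 4 of miR-191 start at the same base, and the fifth starts 1 base later and so has another seed. The sixth ends in a base that differs from the hairpin sequence deduced from the reads. The last one comes from the other arm.
miR-191, 20 nt: cAACGGAAtcccaaaagcag
miR-191, 21 nt: cAACGGAAtcccaaaagcagc
miR-191, 22 nt: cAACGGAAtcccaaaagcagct
miR-191, 18 nt: cAACGGAAtcccaaaagc
miR-191, later start: aACGGAATcccaaaagcagctg
miR-191, changed end: cAACGGAAtcccaaaagcagctga
miR-191, other arm: cTGCGCTTggatttcgttccc

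For miR-22 the 3 commonest reads again share their start, and the fourth carries a base change at the last seed position. The last one is from the other arm.
miR-22, 22 nt: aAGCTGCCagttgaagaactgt
miR-22, 19 nt: aAGCTGCCagttgaagaac
miR-22, 20 nt: aAGCTGCCagttgaagaact
miR-22, changed seed: aAGCTGCTagttgaagaactgt
miR-22, other arm: aGTTCTTCagtggcaagcttt

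Neither the miR-191 seed AACGGAA, nor the seed ACGGAAT of its later start, nor the miR-22 seed AGCTGCC was found in the commonest read of any other of the 105 named miRNAs.

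miR-191 stood among the leading miRNAs of all 3 libraries. It had 42653 reads for CON, 54070 for OVER and 99628 for RES, or 4272, 6524 and 7570.4 reads per 1000000 reads of the library (RPM). As a share of miRNA reads it was 5.08% in CON (exact Clopper-Pearson 95% interval 5.04 to 5.13%), 3.92% in OVER (3.88 to 3.95%) and 6.52% in RES (6.48 to 6.56%). The 2 scales order the libraries differently: OVER lay between CON and RES by RPM and was the lowest by share. The rank of miR-191 among ovine-named miRNAs was 4 in every library. In CON its 42653 reads lay between the 51754 of oar-mir-148a above it and the 27950 of oar-mir-30a below it, both apart from it by more than counting error.

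miR-22 was several times less abundant than miR-191, and its highest level was in OVER on both scales. It had 5293 reads for CON, 21672 for OVER and 10813 for RES, or 530.2, 2615 and 822 RPM. Its share of miRNA reads was 0.631% in CON (0.614 to 0.648%), 1.57% in OVER (1.55 to 1.59%) and 0.708% in RES (0.694 to 0.721%). Its rank was 17, 9 and 13 in CON, OVER and RES. Its neighbours in the order of CON reads, oar-mir-3958 with 5305 and oar-mir-27a with 5201, did not differ from it beyond counting error, since the intervals of the ratio of reads were 0.960 to 1.04 and 0.979 to 1.06.

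**Figure D1:**
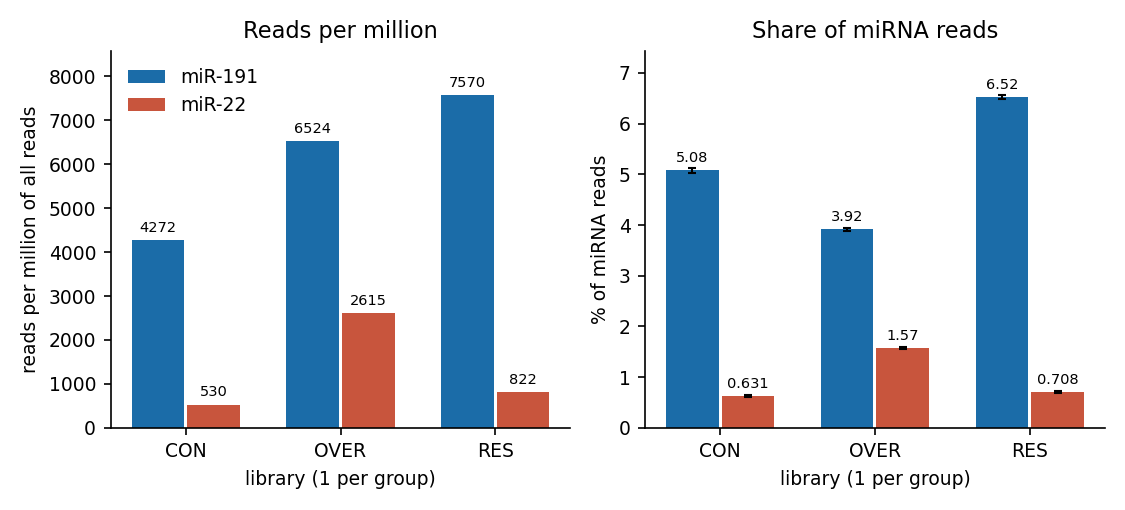
Level of miR-191 (blue) and miR-22 (red) in the CON, OVER and RES libraries, 1 library per group. The left panel gives RPM and the right panel the percentage of miRNA reads with its exact 95% counting interval. miR-191 is highest in RES on both scales (7570.4 RPM, 6.52%), and miR-22 is highest in OVER (2615 RPM, 1.57%).

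miR-22 was higher in OVER than in CON by every scaling, while the direction of miR-191 depended on the scaling. Reads were first scaled within the miRNA class with the TMM factors of edgeR, which set the typical miRNA of the libraries equal. By this measure the log2 ratio of OVER over CON was 1.05 for miR-22 (1.01 to 1.10) and -0.64 for miR-191 (-0.66 to -0.62). The background is the 76 miRNAs that reached 100 reads over both libraries, of which 10.5% were higher and 9.21% lower by 2-fold or more. miR-22, at 2.08-fold, was among the 8 higher ones, 6 other miRNAs having larger ratios, and miR-191 was within 2-fold. By RPM the median of the 76 miRNAs was 1.28, the log2 ratio of miR-22 was 2.30 (4.93-fold) and that of miR-191 was 0.61. On that scale 64.5% of miRNAs were 2-fold or more higher and 0% lower, so the RPM ratio of miR-22 is to be read against that shift. miR-191, although above CON by RPM, lay below the median miRNA. As plain shares of miRNA reads, miR-22 stood at 1.32 and miR-191 at -0.38, with 19.7% of miRNAs higher and 5.26% lower.

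The RES library held more of both miRNAs than CON on each of these scales, and neither was 2-fold apart. The log2 ratio of RES over CON within the class was 0.70 for miR-191 (0.68 to 0.71) and 0.50 for miR-22 (0.46 to 0.55). Among 74 miRNAs, 2.70% were higher and 18.9% lower by 2-fold or more, and 9 other miRNAs had a larger ratio than miR-191. By RPM the values were 0.83 for miR-191 and 0.63 for miR-22, with a median of 0.15 over the 74, of which 4.05% were higher and 17.6% lower. With plain shares the values were 0.36 and 0.17, the median of the miRNAs was -0.32, and 0% were higher and 25.7% lower.

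Between OVER and RES, miR-191 lay below the median miRNA and miR-22 above it. A scaling moves every log2 ratio of a pair by the same amount, so this order cannot differ between scales. The log2 ratio of OVER over RES within the class was -1.33 for miR-191 (-1.35 to -1.32), 2.52-fold lower, and 0.55 for miR-22 (0.52 to 0.58). Among 80 miRNAs, 18.8% were higher and 8.75% lower by 2-fold or more. The 4 with a smaller ratio than miR-191 were oar-mir-16b, oar-mir-323a, oar-mir-323b and oar-mir-543. By RPM miR-191 stood at -0.21 and miR-22 at 1.67, with a median of 1.21 and with 65.0% of miRNAs higher and 1.25% lower. As plain shares they stood at -0.74 and 1.15, with a median of 0.69, and 36.2% of miRNAs were higher and 5.00% lower. These 3 comparisons share libraries pairwise and are not independent of each other.

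**Figure D2:**
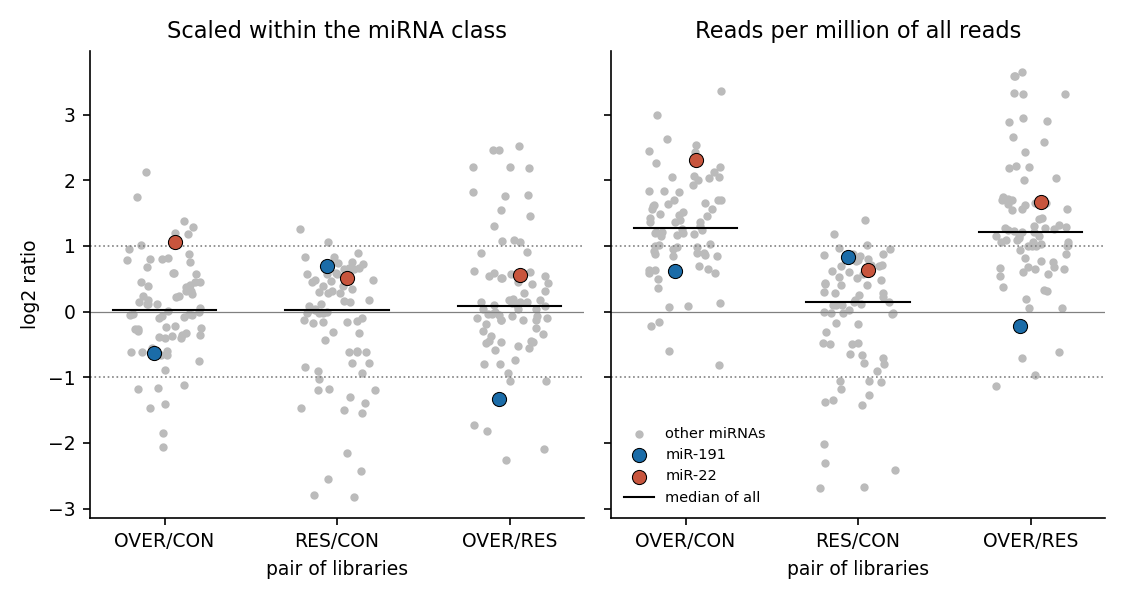
Log2 ratios between pairs of libraries for every miRNA with at least 100 reads in the pair (grey), with miR-191 in blue, miR-22 in red and the median of all miRNAs as a black bar. Dotted lines mark 2-fold. Scaled within the class (left), miR-22 lies at 1.05 and miR-191 at -0.64 in OVER over CON; by RPM (right) the whole cloud moves to a median of 1.28 and miR-191 lies at 0.61.

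The balance of the 2 miRNAs does not depend on any scaling, since both are counted in the same library. There were 8.06 miR-191 reads per miR-22 read in CON (7.83 to 8.29), 2.49 in OVER (2.46 to 2.53) and 9.21 in RES (9.03 to 9.40). The balance in OVER was thus 3.23-fold below that in CON. Adapters are ligated to different miRNAs with different efficiency, so these are ratios of reads and not of molecules.

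Pattern neighbours were sought among the 80 ovine-named miRNAs with 100 reads or more in all, by the distance between their log2 levels over the 3 libraries, each centred on its mean. The nearest to miR-191 were oar-mir-99a (distance 0.215), oar-mir-125b (0.239) and oar-mir-323a (0.283), all highest in RES and lowest in OVER within the class, though by RPM all 3 were lowest in CON. The nearest to miR-22 were oar-mir-376c (0.074), oar-mir-412 (0.100) and oar-mir-376b (0.181), all highest in OVER. These last 3 rest on 45, 66 and 25 reads in CON, and every pattern has only 3 points. All these neighbours were chosen by their levels within the class, so the order they share there follows from the choice.

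miRNAs of other cells were measured beside the members, as semen can hold epithelial and blood cells. Of 6 listed epithelial miRNAs, 3 of the miR-200 family (a, b and c) had an ovine name, and they summed to 463.9, 1094 and 133.9 RPM in CON, OVER and RES. Their median log2 ratio within the class was 0.05 in OVER over CON and -2.15 in RES over CON. The medians of all miRNAs compared were 0.03 and 0.02. In RES 3 of 3 were lower than in CON by 2-fold or more, beside 18.9% of 74 miRNAs. By RPM the medians of the 3 were 1.30 and -2.02, beside 1.28 and 0.15 for all miRNAs compared. The part of such cells in the levels of miR-191 and miR-22 was not tested. oar-mir-150 of lymphocytes, the 1 blood cell miRNA of 7 listed with an ovine name, had 12, 10 and 37 reads. The 5 listed miRNAs of male germ cells have no ovine name in the tables and were not analysed here, so the label of sperm was not checked by its own markers.

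Both miRNAs came almost wholly from 1 arm of the hairpin. For miR-191 the arm beginning with the seed AACGGAA gave 42591 of 42653 reads in CON, 54024 of 54070 in OVER and 99579 of 99628 in RES. The other arm gave 62, 42 and 47 reads, or 0.145% (0.111 to 0.186%), 0.0777% (0.0560 to 0.105%) and 0.0472% (0.0347 to 0.0627%). Its share was highest in CON, with an interval apart from the others. That excess leans on 1 sequence, the other-arm read shown above, which gave 27, 4 and 4 reads in CON, OVER and RES. A form starting 1 base earlier gave 10, 13 and 10, and was the commonest of that arm in OVER and RES. For miR-22 the other arm gave 19, 55 and 27 reads, or 0.359%, 0.254% and 0.250%, with overlapping intervals. Reads on the opposite DNA strand were 2, 0 and 2 for miR-191 and 0, 2 and 0 for miR-22.

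The 3′ ends of miR-191 were spread over several positions, and most reads of miR-22 shared 1 end. The commonest miR-191 read was the 20 nt form, with 34.5%, 32.3% and 30.8% of its reads in CON, OVER and RES. The 21 nt form held 21.4%, 25.9% and 25.3%, and the 22 nt form 18.3%, 15.0% and 22.2%. The 18 nt form held 4.92%, 11.4% and 5.00%, while the 19 nt form between the 18 and 20 nt forms held 0.401%, 0.647% and 0.364%, so the ends skipped a position. miR-22 had a leading 22 nt form with 73.2%, 77.8% and 72.5% of its reads in CON, OVER and RES. Its next form, of 19 nt, held 12.1%, 7.60% and 10.9%, and its 20 nt form held 5.61%, 4.16% and 6.72%. Its 21 nt form, 1 base short of the leading one, held 0.472%, 0.651% and 0.740%.

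Short forms took a larger share of miR-191 in OVER and a smaller share of miR-22. Reads of 19 nt or less were 5.91% of miR-191 in CON (5.69 to 6.14%), 13.3% in OVER (13.05 to 13.62%) and 5.96% in RES (5.82 to 6.11%). For miR-22 they were 12.2% in CON (11.3 to 13.1%), 7.83% in OVER (7.48 to 8.20%) and 11.1% in RES (10.5 to 11.7%). OVER is thus the high library for miR-191 and the low one for miR-22. Mean read length was 21.02, 20.61 and 20.99 nt for miR-191 and 21.5, 21.7 and 21.5 nt for miR-22. The OVER library as a whole held short RNA, with 29.6% of all reads at 15 to 20 nt, against 5.98% in CON and 10.3% in RES.

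**Figure D3:**
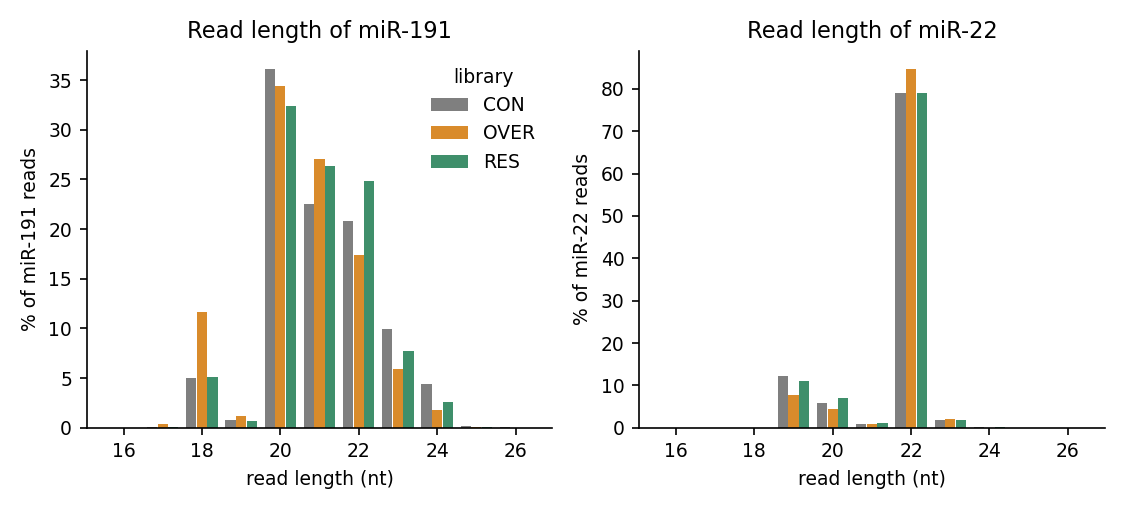
Read lengths of miR-191 (left) and miR-22 (right) as a percentage of the reads of each, in CON (grey), OVER (orange) and RES (green). The 18 nt reads of miR-191 are highest in OVER, where the 19 nt reads of miR-22 are lowest (bars at 11.6% and 7.76%).

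The direction of miR-22 was rare among abundant miRNAs. The same measure was taken in the 22 other ovine-named miRNAs with at least 1000 reads in every library. The share of reads of 19 nt or less was higher in OVER than in CON in 21 of the 22, by a median of 1.58 percentage points over the 22, and lower in 1, oar-mir-27a. It was 7.42 points higher for miR-191, which 5 of the 22 exceeded, and 4.37 points lower for miR-22. The 5 above miR-191 included the let-7 names ending in f, a and c, which share a commonest read and are not separate. The names oar-mir-30a and oar-mir-30d also share theirs, as do oar-mir-10b and oar-mir-10a, so counts out of the 22 are of names. The difference in mean length was 0.16 nt for miR-22, above all 22 others, whose range was -1.20 to 0.06 nt, and -0.41 nt for miR-191. In RES the share of short reads differed from CON by -1.13 points for miR-22, below all 22 others, whose lowest was -0.49. The counting intervals of miR-22 in CON and RES overlap, however. For miR-191 the share differed by 0.05 points. The mean length in RES differed from CON by 0.01 nt for miR-22 and by -0.03 nt for miR-191, inside the range of the others, -0.56 to 0.05 nt.

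**Figure D4:**
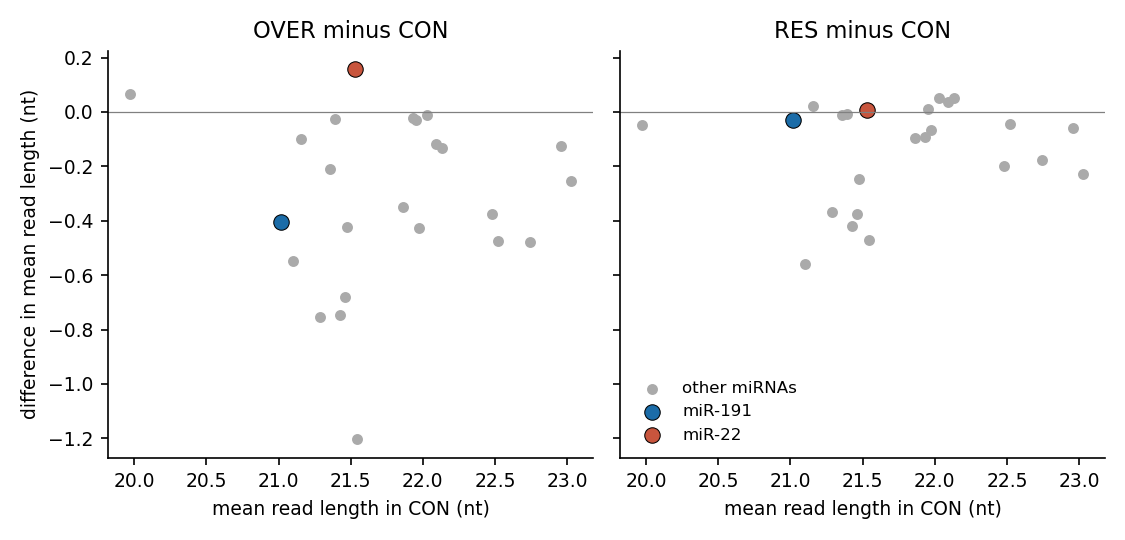
Difference in mean read length from CON, in nucleotides, against the mean length in CON, for miR-191 (blue), miR-22 (red) and 22 other miRNAs with at least 1000 reads in every library (grey). In OVER minus CON (left) miR-22 lies highest, at 0.16 nt, and most others lie below 0; in RES minus CON (right) both members lie near 0.

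Single miR-191 sequences did not all follow the total between OVER and CON. Of 23 miR-191 sequences that reached 100 reads over both libraries, 15 were higher and 8 lower by RPM, with log2 ratios from -1.24 to 3.30 and a median of 0.52, below the 1.28 of the median miRNA. Scaled within the class, 5 were higher and 18 lower, with a median of -0.73. The 18 nt form stood at 210.1, 742.9 and 378.8 RPM in CON, OVER and RES. The 23 nt form, cAACGGAAtcccaaaagcagctg, had 245.7, 230.1 and 304.2 RPM. All reads of 23 nt or more made up 14.6%, 7.78% and 10.5% of miR-191 in CON, OVER and RES. For miR-22, 9 of 9 sequences were higher in OVER than in CON by RPM and within the class. Their medians were 2.39 and 1.14, beside 1.28 and 0.03 for the median miRNA. By RPM 64.5% of all miRNAs compared were 2-fold or more higher in OVER. In RES over CON 8 of 8 were higher on both scales. Their medians were 0.62 and 0.49, beside 0.15 and 0.02 for the median miRNA. In OVER over RES 9 of 9 were higher by RPM, while within the class 8 were higher and 1 lower. Higher here means by any amount, and the share of all miRNAs that were higher by any amount was not counted. These sequences are forms of 1 miRNA in 1 library per group, so their agreement repeats its total. The 22 nt form of miR-22 had 387.8, 2034 and 595.8 RPM in CON, OVER and RES.

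The 5′ end of miR-22 was nearly fixed, and a small part of miR-191 started 1 base later. Reads starting at the commonest base were 99.8% of the main arm of miR-22 in CON, 99.9% in OVER and 99.8% in RES. For miR-191 they were 96.4%, 96.3% and 96.95%. The later start, which moves the seed to ACGGAAT, held 3.49% of miR-191 in CON (3.31 to 3.67%), 3.64% in OVER (3.48 to 3.80%) and 2.96% in RES (2.86 to 3.07%), or 1485, 1967 and 2947 reads. Only the RES interval was apart from the others. In the 22 other miRNAs the share of reads starting 1 base after the commonest start had a median of 0.02% in CON, and 3 of them, oar-mir-10a, oar-mir-10b and oar-mir-411a, lay above miR-191, which had 3.39% in CON by this count of exact matches to the first bases of each start. Of these, oar-mir-10a and oar-mir-10b share their commonest read and are not separate.

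miR-191 reads that started later also ended later. Counted from the commonest start, 68.3% of the later-starting reads in CON ended at position 23 or beyond, against 13.95% of the reads with the common start. The values were 49.2% against 7.26% in OVER and 65.2% against 10.1% in RES. As a result the later-starting reads, though a base shorter at the 5′ side, were longer on average, at 21.67 against 20.99 nt in CON, 20.87 against 20.60 nt in OVER and 21.48 against 20.97 nt in RES.

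To tell bases of the hairpin from added ones, the hairpin bases after position 22 were deduced from the reads. The annotation was assumed to accept a read with at most 1 mismatch, and the continuation that best reproduced it was kept. For miR-191 the continuation GTTG accounted for the annotation of 94 of 94 sequences, with no other continuation of 4 bases doing as well. For miR-22 the continuation TGC did so for 20 of 20 sequences. Both continuations were fitted to the annotation, so these counts are no separate check of the assumption. A change in the last 2 bases was called an end change: it can be an added base or a misread one. End changes were 8.70% (8.44 to 8.98%), 4.35% (4.18 to 4.53%) and 6.71% (6.56 to 6.87%) of main arm reads of miR-191 in CON, OVER and RES, with OVER the lowest. For miR-22 they were 5.82% (5.20 to 6.49%), 6.34% (6.02 to 6.68%) and 5.50% (5.08 to 5.95%), where CON overlaps both other libraries.

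The changed ends favoured certain bases. Positions are counted from 1 at the commonest 5′ start, and a change such as T24A gives the deduced base, the position and the base read. The shares are first given over reads with the common start and no other change. Of such miR-191 reads ending at position 24, T24A was carried by 74.1% in CON (71.6 to 76.5%), 47.0% in OVER (43.3 to 50.7%) and 72.9% in RES (70.6 to 75.1%). Over all reads of the arm that end there, a count chosen after seeing the data, the shares were 53.9% (51.8 to 56.0%), 38.5% (35.9 to 41.2%) and 47.4% (45.7 to 49.2%). OVER was the lowest on both counts, while CON and RES overlap only on the first. Of such reads ending at position 23, G23T was carried by 26.9%, 24.2% and 35.0% in CON, OVER and RES, and over all reads ending there by 23.8%, 20.5% and 30.1%, with RES the highest on both counts.

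A C at the end was the commonest in OVER for both miRNAs. Among miR-191 reads with the common start and no other change that end at position 22, T22C was carried by 2.75% in CON (2.40 to 3.13%), 5.17% in OVER (4.72 to 5.66%) and 2.70% in RES (2.49 to 2.92%). Among the same kind of miR-22 reads, T22C was carried by 1.68% in CON (1.31 to 2.12%), 3.43% in OVER (3.16 to 3.70%) and 1.41% in RES (1.17 to 1.69%). In both, CON and RES overlap and OVER stands apart.

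Base changes inside the reads of miR-191 were mostly C to T. There, C11T was carried by 0.933% of the reads that cover it in CON (0.842 to 1.03%), 1.19% in OVER (1.10 to 1.29%) and 1.12% in RES (1.06 to 1.19%). The C on either side changed less often: C10T was at 0.241%, 0.342% and 0.198%, and C12T at 0.0852%, 0.0461% and 0.0849%. C18T was at 0.292%, 0.338% and 0.334%. Position 11 lies outside the seed. Inside the seed, A8C was at 0.141% in CON (0.107 to 0.183%), 0.163% in OVER (0.131 to 0.202%) and 0.0238% in RES (0.0151 to 0.0357%). For A8C the RES interval lay below both others.

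In miR-22 the leading changes fell in the seed. C8T was carried by 0.342% of covering reads in CON (0.203 to 0.540%), 0.616% in OVER (0.516 to 0.730%) and 0.725% in RES (0.573 to 0.903%), with 18, 133 and 78 reads. C7T was at 0.209%, 0.264% and 0.409%. The intervals of CON overlap those of OVER for both changes, while for C8T the CON and RES intervals do not overlap.

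**Figure D5:**
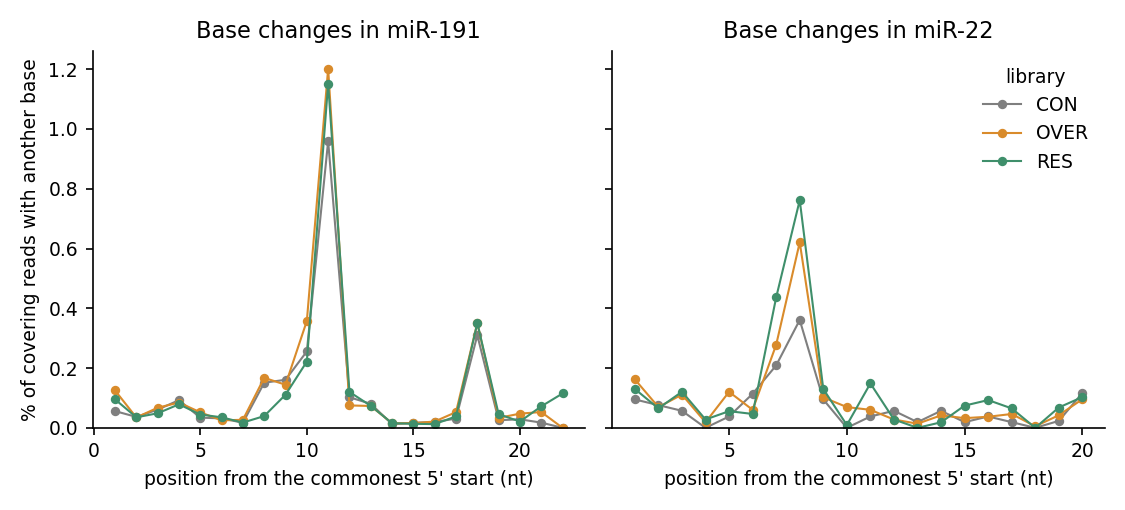
Percentage of covering reads with another base, by position from the commonest 5′ start (nt), in miR-191 (left) and miR-22 (right), for CON (grey), OVER (orange) and RES (green); the last 2 bases of each read are left out. The peaks lie at position 11 of miR-191, where C11T alone is 0.933 to 1.19%, and at position 8 of miR-22, where C8T is 0.342 to 0.725%.

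C to T made up 67.4% of the 1000 changed reads of miR-191 in CON, 70.4% of 1493 in OVER and 73.0% of 2439 in RES, and 40.5% of 74, 45.5% of 431 and 50.6% of 253 for miR-22. For the comparison with other miRNAs, changes in all rows of the tables were counted against the commonest read alone. By that count C to T was 78.0% of the changes of miR-191 in CON and 38.8% of those of miR-22, against a median of 14.02% in the 22 others. oar-mir-125b, oar-mir-30a and oar-mir-30d exceeded miR-191, the last 2 with the same values, and these 3 and oar-mir-3958 exceeded miR-22. Some of the others have near-identical paralogs, whose reads count as changes. The share of C to T also depends on how many C bases the commonest read has, which was not adjusted for. The 22 are therefore a rough background, and whether C to T is in excess in the members was not tested.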

How the data were processed

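Small RNA of sperm was sequenced after 15 to 50 nt size selection with the NEBNext kit, per the labels' protocols. The authors deposited, per the file headers, tables of distinct sequences with length, count of reads, genome match and annotation. The counts are whole numbers without normalization. Of tools, edgeR stands in the submitters' processing notes. Aligner, annotation tool and genome build: not given in the sources used here. Libraries held 9983895 (CON), 8287937 (OVER) and 13160116 (RES) reads, of which 839260, 1380832 and 1528187 were annotated as miRNA, with or without an ovine name.

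Within each group sequences, counts and genome flags were identical over the 3 tables, and annotation terms differed in 0 to 3 sequences, none of a member. Each group was therefore 1 library, and no test was made between groups. Reads were summed per name and scaled by TMM (edgeR 4.0.16, R 4.3.3) on the miRNA total. For intervals of ratios the 2 counts were treated as a binomial draw, exactly. The calculation of ratios was checked on simulated counts with known ratios. Reads were placed on a sequence built from the reads with at most 1 mismatch, in place of the planned hairpin, which was not used here. miR-425 and markers without an ovine name were not analysed here for the same reason. The alternatives were DESeq2 1.42.0 size factors, plain shares, RPM, reads of 20 to 24 nt, genome-matching reads, equal splits of shared reads, no minimum of reads and, for ends, exact reads or sequences of at least 10 reads. Python 3.11.15 with scipy 1.17.1 was used.

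The members and lists were chosen with earlier results of these data known. A list of miRNAs is not reported here. Genes were named by rule: the members, the 3 nearest patterns, the neighbours in CON reads and the 3 commonest reads. Among neighbours, only the nearest on each side are printed. The 18 nt, later-start, changed-end, changed-seed and 23 nt forms, the base changes, and miRNAs outside this rule were chosen after their values were seen.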

Additional observations from a re-analysis of the deposited data

Results flagged for a closer look

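Reads that carry bases 3 to 16 of a member's commonest read but have no annotation fell outside the naming rule, and in some libraries they stood above their level in CON. For miR-191 they were at 120.6 RPM in RES, against 83.8 in CON and 40.2 in OVER. For miR-22 they were at 10.5 RPM in OVER and 8.28 in RES, against 4.21 in CON. Compared with the reads under the rule they are few, at 1.96%, 0.616% and 1.59% of the miR-191 reads of CON, OVER and RES, and 0.794%, 0.401% and 1.01% of the miR-22 reads. Many are miR-191 or miR-22 sequences with 2 or 3 further bases at the 3′ end that depart from the deduced hairpin: 610, 179 and 857 reads for miR-191 and 25, 62 and 38 for miR-22. Tails of more than 3 bases were on 168, 89 and 570 reads for miR-191 and on 12, 14 and 50 for miR-22. In RES the longer tails of miR-22 thus outnumbered those of 2 or 3 bases. Relative to the reads under the rule, the tails of 2 or 3 bases were 1.43%, 0.331% and 0.860% for miR-191, lowest in OVER.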

How the results depend on the processing

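No value has a replicate check, so only the dependence on settings can be given, and leaving out a replicate was not run because the 3 tables of a group are identical. No paired analysis was possible because the same-numbered samples are copies of 1 table per group. Log2 ratios are given in the order OVER over CON, RES over CON, OVER over RES. For miR-191 they were -0.67, 0.74 and -1.41 with DESeq2 size factors, -0.38, 0.36 and -0.74 as plain shares of miRNA reads, 0.61, 0.83 and -0.21 by RPM, -0.73, 0.68 and -1.40 with reads of 20 to 24 nt, and -0.47, 0.64 and -1.11 with shared reads split equally. Thus RPM turns the direction of OVER over CON, and with plain shares or RPM OVER over RES is within 2-fold. For miR-22 they were 1.02, 0.54 and 0.47 with DESeq2 size factors, 1.32, 0.17 and 1.15 as plain shares, 2.30, 0.63 and 1.67 by RPM, 1.15, 0.50 and 0.65 with 20 to 24 nt, and 1.22, 0.45 and 0.77 with an equal split. No direction of miR-22 turned in these settings, and its OVER over RES ratio passes 2-fold as a plain share and by RPM. With genome-matching sequences only, no ratio of either left its counting interval. Adding the unannotated reads that carry the core, an alternative chosen after seeing the data, gave -0.66 for miR-191 in OVER over CON. The number of miRNAs at least 2-fold apart in OVER over CON was 15 (8 higher, 7 lower), 49 by RPM (49 higher, 0 lower) and 25 with no minimum of reads. In OVER over RES it was 22 (15 higher, 7 lower) and 53 by RPM (52 higher, 1 lower). As plain shares the split was 15 higher and 4 lower in OVER over CON, 0 and 19 in RES over CON, and 29 and 4 in OVER over RES. As a share of ovine-named miRNA reads only, miR-191 was 8.06%, 5.96% and 11.0% in CON, OVER and RES and miR-22 was 1.001%, 2.39% and 1.20%. Within 20 to 24 nt, miR-191 was 3.55% in OVER and 6.69% in RES, and miR-22 was 0.585%, 1.51% and 0.687%. Of the 36 alternative values for lengths and ends, 21 left the counting interval of the main value and 15 did not. Those for mean length kept only reads of 20 to 24 nt, and those for T24A, G23T and T22C took in all reads ending there. As these cover other reads than the main values, a move is no measure of error. Depth limits what can be said of the other arm and of the base changes of miR-22.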
